A study of Mus musculus with 12 samples.

Results

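The 10 genes described here encode the 5 NF-kB subunits (Rela, Relb, Rel, Nfkb1 and Nfkb2) and 5 IkB proteins that bind them (Nfkbia, Nfkbib, Nfkbie, Nfkbid and Nfkbiz). They were found by gene symbol in the deposited tables, where each symbol had 1 row, among 24934 genes with a count. All 10 passed the filter on low counts that left 13249 genes to test. RNA sequencing of BV2, a long-established cell line of mouse microglia, gave 12 libraries in 3 groups. The Acacetin group (4 libraries) was given acacetin, a flavone made by plants, at 10 µM. Their treatment label names the compound alone, but the series text places it with deprivation and re-oxygenation, and they are read so here. The OGD group (4 libraries) went through oxygen and glucose deprivation with re-oxygenation, a culture model of stroke, and the Control group (4 libraries) carries no treatment in its label. All 3 groups are the same line, and the labels give no durations, no vehicle and do not say whether replicate libraries are separate cultures. P-values therefore measure the spread between these libraries, which may be technical.

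NF-kB is a family of dimeric transcription factors that turn on inflammatory and survival genes in microglia and macrophages. In resting cells the classical IkB proteins hold the dimers in the cytoplasm. Signals from cytokine and Toll-like receptors activate the IkB kinase (IKK) complex, the IkB proteins are degraded, and the dimers enter the nucleus, where they also switch on genes of their own inhibitors. In the non-canonical route the kinase NIK drives the processing of p100, the product of Nfkb2, and frees dimers of RelB and p52. Nuclear IkB proteins act differently, since they bind dimers on DNA and raise or lower single target genes. Much of this control acts on proteins, which RNA levels do not show.

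Total counts ran from 16427886 to 32693066 reads per library. The share of 18S rRNA reads was 13.1% in OGD 2, 21.3% in OGD 3 and 0.137% to 1.86% in the other 10 libraries. Coverage of long genes was uneven: the slope of log2 expression on log2 gene length, relative to the mean over libraries, ran from -0.21 in Acacetin 1 to 0.30 in Acacetin 3. Myeloid markers summed to between 3093 and 4892 CPM (read counts scaled by library size with TMM) in Acacetin, 3716 and 5297 CPM in OGD, and 4243 and 5006 CPM in Control. Of these 14 markers only P2ry12 failed the filter, at 0.0467 CPM. The sums rested largely on genes such as Lyz2 (mean 1713 CPM over all libraries) and Cd68 (878 CPM). Cx3cr1 (3.07 CPM) and Tmem119 (5.16 CPM) were low. Each of the 6 lists for astrocytes, neurons, oligodendrocytes, endothelial cells, fibroblasts, and T and B cells summed to at most 6.26 CPM in any library, and Aqp4, Syt1, Mog, Dcn, Lum and Cd3g had no row in the count table. In bulk RNA, fewer cells with a transcript and less of it per cell cannot be told apart.

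The promoters are shown because several of these genes are known targets of the factor they encode or inhibit. RefSeq (build GRCm38.p6, not the GRCm39 of the counts) gave promoter windows for 7 of the 10 genes. Relb, Nfkb1 and Nfkbiz had no entry. The 250 bases before each start were searched on both strands for the kappa B consensus, the 10-base site of NF-kB dimers. It was present in some window of 5 of the 7 genes (Nfkb2, Nfkbia, Nfkbid, Nfkbie and Rel), against 8.23% of 27025 genes with a window. The windows of Rela and Nfkbib held no match. Capitals mark matches, which are letters in a sequence and not measured binding.

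The 250 bases before the second of 3 annotated starts of Nfkbid (chr7:30422156-30422405, plus strand) held 2 matches, at 226 and 181 bases before the start. The other 2 windows of the gene held none. Nfkbia (chr12:55492648-55492897, minus strand) held 1 match, 29 bases before its start.
Nfkbid promoter: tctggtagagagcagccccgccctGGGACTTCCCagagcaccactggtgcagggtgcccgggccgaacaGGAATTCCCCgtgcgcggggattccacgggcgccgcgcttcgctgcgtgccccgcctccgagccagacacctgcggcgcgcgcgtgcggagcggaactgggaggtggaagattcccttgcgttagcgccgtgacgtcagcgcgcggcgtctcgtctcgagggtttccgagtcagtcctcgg
Nfkbia promoter: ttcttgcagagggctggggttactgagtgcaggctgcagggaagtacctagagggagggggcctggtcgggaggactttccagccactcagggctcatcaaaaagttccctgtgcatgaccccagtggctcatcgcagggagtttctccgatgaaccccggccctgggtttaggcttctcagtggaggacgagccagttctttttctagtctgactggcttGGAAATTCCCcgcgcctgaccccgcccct

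For the other 3 genes the 30 bases around a match show the site itself. Nfkb2 carried overlapping matches 39 and 38 bases before its first start (chr19:46304689-46304718, plus strand) and another 11 bases before it (chr19:46304707-46304736), whose line opens with the end of the overlapping pair. Its other 2 windows held 1 match each. Rel (chr11:23771041-23771070, minus strand) had overlapping matches at 92 and 91 bases, and Nfkbie (chr17:45555584-45555613, plus strand) had 1 at 106 bases.
Nfkb2 site at 39: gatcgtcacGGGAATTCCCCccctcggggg
Nfkb2 site at 11: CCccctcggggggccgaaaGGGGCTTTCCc
Rel site at 92: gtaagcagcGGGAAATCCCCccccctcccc
Nfkbie site at 106: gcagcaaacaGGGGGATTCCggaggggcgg

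Levels are compared between genes on the authors' deposited FPKM, read counts scaled by gene length and library size. Nfkbia, the gene of IkB alpha and the best-known feedback inhibitor of NF-kB, was highest in each group, at 92.8 ± 8.97 FPKM in Acacetin, 82.3 ± 20.7 FPKM in OGD and 90.5 ± 5.72 FPKM in Control (SD, n = 4 each, as for all means below). Nfkbib, the gene of IkB beta, was next, at 39.2 ± 4.41, 36.1 ± 8.62 and 49.3 ± 3.11 FPKM in the same order of groups. Nfkbid, the gene of the nuclear protein IkBNS, had rank 3 in Acacetin (22.0 ± 4.51 FPKM) and OGD (24.1 ± 5.66 FPKM) but rank 5 in Control (8.76 ± 1.53 FPKM), below Nfkb2 and Rela.

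Among the subunits, Rela was ahead of Nfkb2 in Acacetin (14.7 ± 1.48 against 9.30 ± 0.69 FPKM) and in OGD (13.8 ± 4.59 against 9.09 ± 3.19 FPKM), while in Control Nfkb2 led with 14.7 ± 1.61 against 11.2 ± 0.78 FPKM. That order of the pair held in each of the 4 libraries of each group. Nfkbie and Rel were lowest throughout, with group means of at most 1.07 FPKM for Nfkbie and 0.398 FPKM for Rel. In Control the ranges of neighbours in the order did not overlap except for Nfkbiz and Nfkb1. In Acacetin the 5 highest genes were separate from each other, and the ranges of neighbours overlapped from Relb (3.41 ± 0.14 FPKM) downward. In OGD the ranges of most neighbours overlapped. Deposited FPKM was low in general in OGD 2 and OGD 3, where the median tested gene stood at 1.59 and 1.37 FPKM, beside 1.66 to 2.93 FPKM in the other 10 libraries.

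**Figure D1:**
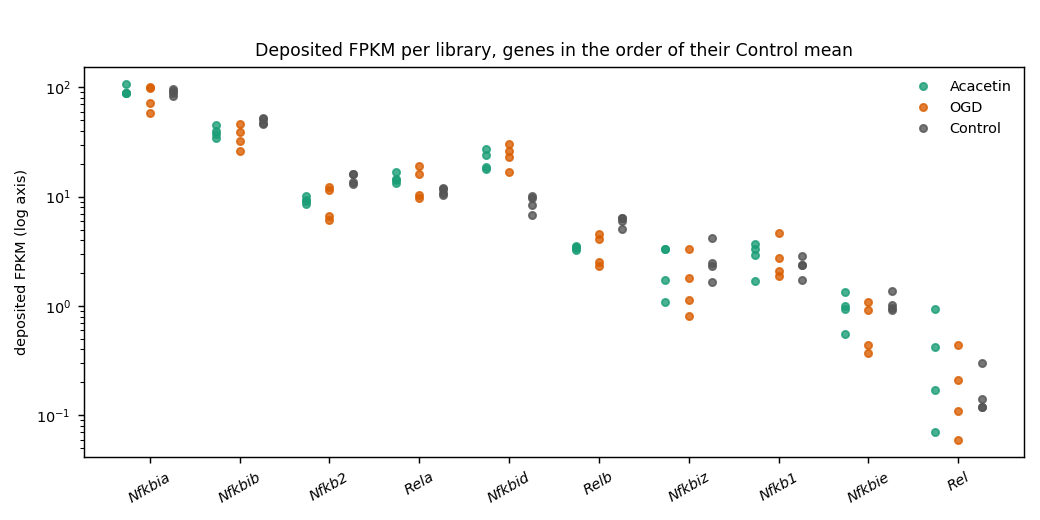
Deposited FPKM on a log axis for the 10 genes, with 1 point per library and the groups Acacetin, OGD and Control side by side, genes ordered by their Control mean. Nfkbia is highest in all groups, Rel is lowest, and Nfkbid lies above Rela and Nfkb2 in Acacetin and OGD but below both in Control.

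OGD against Control asked how the genes moved with deprivation and re-oxygenation. Nfkbid and Rela rose, Relb and Nfkb2 fell, and the other 6 genes did not pass the test. That is 2 of 10 higher, where 16.2% of all 13249 tested genes were higher, and 2 of 10 lower, where the share was 12.6%. In both directions together 28.8% of genes were called, so the count of 4 is near the background and says nothing particular about the family. The direction of calls over all genes depends on scaling, with 2148 higher and 1665 lower by edgeR on counts, and 948 higher and 1963 lower by limma on log2(FPKM + 1). The groups did not overlap for 6 of the 10 genes, against 36.0% of genes tested, and 4 had an unadjusted p under 0.05, against 39.3%. The median log2 fold change was -0.17 over the 10 genes and 0.03 over all tested genes. Adjusted p-values are those of edgeR's quasi-likelihood test with Benjamini-Hochberg adjustment over all tested genes, called under 0.05, and errors after a log2 fold change are SE.

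Nfkbid (ENSMUSG00000036931.16, chromosome 7) encodes IkBNS, a nuclear IkB protein known in mouse macrophages for restraining some NF-kB targets and in B cells for supporting others. It stood at 69.7, 82.6, 69.8 and 68.1 CPM in OGD 1 to 4, against 29.6, 23.8, 26.9 and 17.1 CPM in Control 1 to 4. Each OGD library was above each Control library by a wide gap. This was a 2.98-fold rise (log2 fold change 1.58 ± 0.18, adjusted p = 0.000117). It stayed called in all 21 alternative settings, with a log2 fold change from 1.35 to 1.68.

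Rela (ENSMUSG00000024927.9, chromosome 19) encodes p65, the main subunit that activates transcription in the canonical route. It had 56.8, 48.2, 52.3 and 56.1 CPM in OGD 1 to 4, against 45.3, 39.8, 42.8 and 34.0 CPM in Control 1 to 4. The groups were separate, but OGD 2 lay close above Control 1. The difference was 0.40 ± 0.14 on the log2 scale (adjusted p = 0.0474). This call was lost in 7 of 8 fits that left out 1 library, all but the fit without Control 1. In those 7 the adjusted p by edgeR ran from 0.0533 to 0.107 and the log2 fold change from 0.30 to 0.45. It was also lost without OGD 2 and OGD 3 (0.0534), with the size factors of DESeq2 (0.0515), with no filter (0.0767), on thinned counts (0.0630) and with limma on FPKM (0.432 to 0.608).

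Relb (ENSMUSG00000002983.18, chromosome 7) encodes RelB, the activating subunit of the non-canonical route. Its level was 20.1, 13.8, 17.3 and 15.3 CPM in OGD 1 to 4, against 30.8, 29.5, 23.2 and 25.2 CPM in Control 1 to 4. The highest OGD library lay below the lowest Control library. The log2 fold change was -0.71 ± 0.18 (adjusted p = 0.00918). Nfkb2 (ENSMUSG00000025225.16, chromosome 19), whose product p100 inhibits RelB until it is cut to p52, moved with it. It had 59.6, 46.0, 49.2 and 53.7 CPM in OGD 1 to 4, against 91.6, 74.7, 71.6 and 79.2 CPM in Control 1 to 4. The groups were again separate, at a log2 fold change of -0.60 ± 0.17 (adjusted p = 0.0145).

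When OGD 2 and OGD 3 (high in 18S rRNA) were left out, Relb had -0.62 (edgeR adjusted p = 0.0617) and Nfkb2 -0.48 (0.0977), so only Nfkbid of the 10 genes was still called, and the number called among all genes was 2024 in place of 3813. Nfkb2 also missed the threshold with limma on log2(FPKM + 1) without a filter (0.0527). Leaving out any single library kept both calls. Nfkb2 overlaps the genes Psd and AC114539.1 on the opposite strand, and whether reads were counted by strand was not given in the sources used here. Psd averaged 3.72 ± 1.05 CPM in OGD and 5.35 ± 1.22 CPM in Control.

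**Figure D2:**
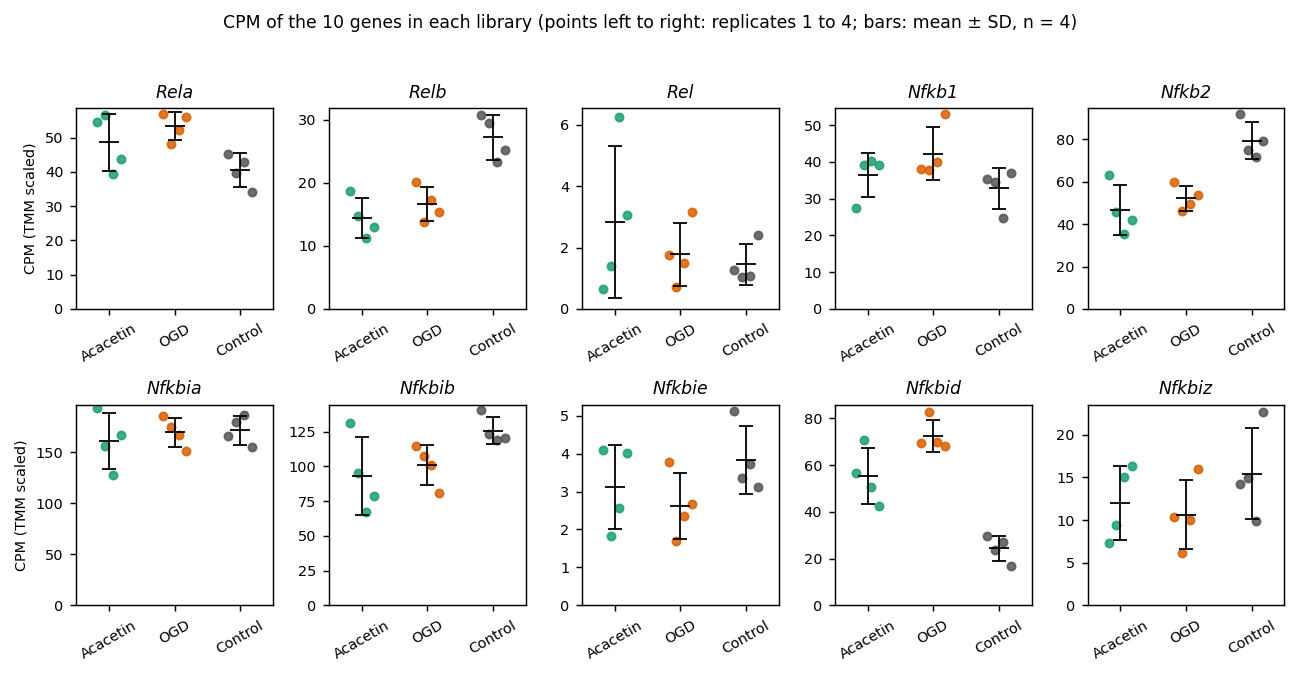
CPM (TMM scaled) of each of the 10 genes, 1 panel per gene with its own axis from 0, in Acacetin, OGD and Control. Points are libraries and bars are mean ± SD (n = 4). Nfkbid is at least 42.7 CPM in each Acacetin and OGD library and at most 29.6 CPM in Control, and Relb and Nfkb2 are lower in each Acacetin and OGD library than in any Control library.

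The other subunit genes did not pass the test. Nfkb1 (ENSMUSG00000028163.18, chromosome 3), the gene of p105 and its product p50, had 38.1, 37.9, 40.0 and 53.2 CPM in OGD 1 to 4, against 35.2, 34.5, 24.7 and 37.1 CPM in Control 1 to 4. The groups did not overlap (log2 fold change 0.36 ± 0.17, adjusted p = 0.130). Nfkb1 is a long gene (length percentile 95.8 among tested genes), and OGD 4, its highest library, had the highest length slope of its group (0.18). With the length trend removed the log2 fold change was 0.35 (adjusted p = 0.112). Nfkb1 overlaps the entry Gm43430 on the same strand, where strand cannot tell reads apart. Rel (ENSMUSG00000020275.10, chromosome 11), the gene of c-Rel, rested on 14 to 97 reads per OGD library and 25 to 73 per Control library. It had 1.77, 0.699, 1.48 and 3.15 CPM in OGD, against 1.27, 1.04, 1.07 and 2.42 CPM in Control (log2 fold change 0.30 ± 0.59, adjusted p = 0.752). Its sign turned without OGD 4 (-0.14).

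None of the 3 classical inhibitors was called. Nfkbia (ENSMUSG00000021025.9, chromosome 12) had 185, 175, 166 and 151 CPM in OGD 1 to 4, against 166, 179, 186 and 155 CPM in Control 1 to 4. The groups overlapped over most of their ranges. The log2 fold change was -0.02 ± 0.14 (adjusted p = 0.948), with a 95% interval from -0.31 to 0.28, which leaves out changes of the size seen for Nfkbid. Nfkbib (ENSMUSG00000030595.16, chromosome 7) had 115, 107, 101 and 80.9 CPM in OGD, against 141, 123, 119 and 120 CPM in Control, a log2 fold change of -0.32 ± 0.18 (adjusted p = 0.222). The groups were separate, and with limma on log2(FPKM + 1) the gene was called (-0.47, adjusted p = 0.0455). That fit had no TMM scaling, and deposited FPKM was low in general in OGD 2 and OGD 3. Nfkbib overlaps Sirt2 and Ccer2 on the opposite strand. Sirt2, a deacetylase gene, fell (-0.65 ± 0.15, adjusted p = 0.00631). Reads from the stretches that these genes share with Nfkbib can be told apart only by strand. Nfkbie (ENSMUSG00000023947.9, chromosome 17), the gene of IkB epsilon, rested on 30 to 125 reads per library and averaged 2.62 ± 0.875 CPM in OGD and 3.83 ± 0.893 CPM in Control (adjusted p = 0.233).

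The second nuclear IkB gene did not pass the test. Nfkbiz (ENSMUSG00000035356.18, chromosome 16), which encodes IkB zeta, a co-activator of secondary response genes such as Il6 in mouse macrophages, had 10.4, 6.19, 10.0 and 16.01 CPM in OGD 1 to 4, against 14.2, 14.9, 9.88 and 22.7 CPM in Control 1 to 4. The groups overlapped (log2 fold change -0.53 ± 0.32, adjusted p = 0.244, 95% interval -1.22 to 0.16).

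Acacetin against OGD asked whether the compound changed these levels after deprivation. None of the 10 genes was called by edgeR, by DESeq2 or by limma on FPKM. Over all genes edgeR called 0% of 13249, with 5.17% at an unadjusted p under 0.05, DESeq2 called 37 genes and limma called 0. Of the 10 genes, 1 had an unadjusted p under 0.05. The groups overlapped for all 10, against 2.35% of tested genes without overlap. The median log2 fold change was -0.13 over the 10 genes and -0.02 over all genes. The direction depends on scaling: by limma on log2(FPKM + 0.1) the median of all genes was 0.24, and Nfkb1, Nfkb2, Rela, Relb, Nfkbia and Nfkbib, negative on counts, had values of 0.068 to 0.20.

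The single gene with an unadjusted p under 0.05 was Nfkbid. It had 56.8, 70.9, 50.5 and 42.7 CPM in Acacetin 1 to 4, against 69.7, 82.6, 69.8 and 68.1 CPM in OGD 1 to 4. Only Acacetin 2 lay within the OGD range. The log2 fold change was -0.39 ± 0.18 (edgeR unadjusted p = 0.0455, adjusted p = 0.8287, 95% interval -0.78 to -0.01). It was negative in all 21 alternatives, from -0.54 to -0.12, and called in none.

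Relb had 18.7, 14.7, 11.2 and 12.9 CPM in Acacetin 1 to 4, with the OGD values given above, and its interval ran from -0.60 to 0.17. For Rela the interval was -0.44 to 0.17 and for Nfkb2 -0.52 to 0.19. Those of Nfkbia (-0.37 to 0.22), Nfkbib (-0.51 to 0.28) and Nfkb1 (-0.58 to 0.15) also reached both sides of 0. These 6 intervals leave out a 2-fold change in either direction and do not show that the levels were alike. For Rel (-0.58 to 1.92), Nfkbie (-0.45 to 0.92) and Nfkbiz (-0.52 to 0.86) the intervals are wider. Rel varied most: its 0.665, 1.40, 6.24 and 3.07 CPM in Acacetin 1 to 4 ran in the order of the length slopes of these libraries, lowest in Acacetin 1 (slope -0.21), where Nfkb1 was also lowest, and highest in Acacetin 3 (slope 0.30). Rel has a length percentile of 83.2. The fit with the length trend removed kept its sign and did not call it, but the part of length coverage in the value of each library was not tested. Without Acacetin 3 the log2 fold change of Rel, 0.67 ± 0.58, became -0.06.

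**Figure D3:**
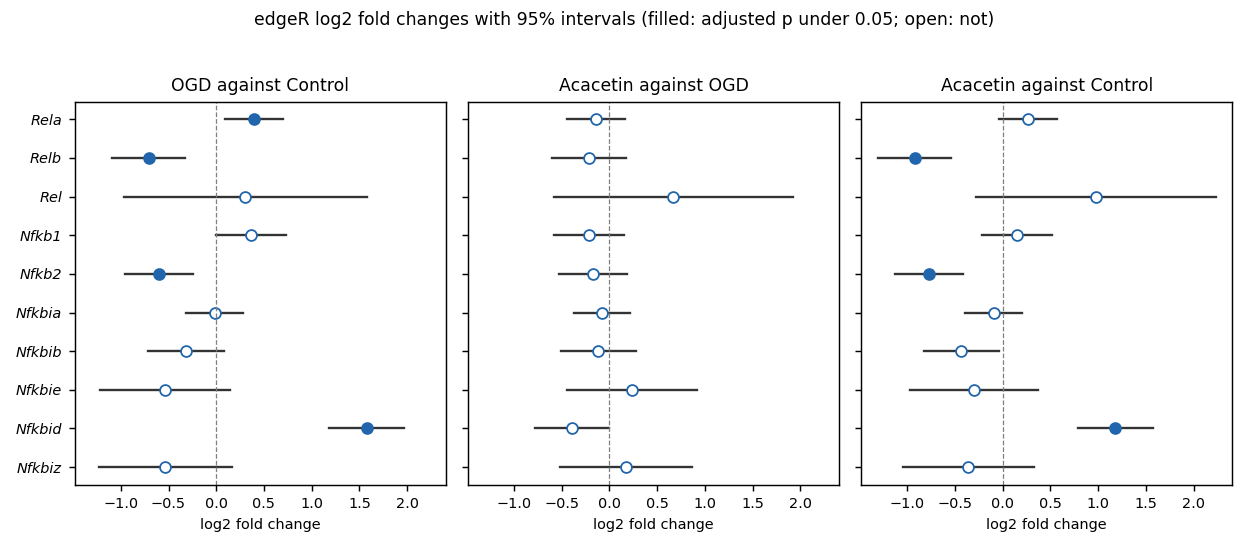
Log2 fold changes by edgeR with 95% intervals for the 10 genes in the 3 comparisons, filled where the adjusted p was under 0.05. Nfkbid lies right of 0 and Relb and Nfkb2 left of 0 in both comparisons with Control, and no point is filled for Acacetin against OGD.

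Acacetin against Control shares its Control libraries with the first comparison, so the values stand beside those above and are no second test of them. Nfkbid was 2.27-fold higher (log2 fold change 1.18 ± 0.18, adjusted p = 0.000680). Relb (-0.92 ± 0.18, adjusted p = 0.00243) and Nfkb2 (-0.77 ± 0.17, adjusted p = 0.00435) were lower. For these 3 genes no Acacetin library reached into the Control range. Nfkb2 had 62.9, 45.7, 35.2 and 42.0 CPM in Acacetin 1 to 4, and Acacetin 1 was closest to Control. Across these libraries the CPM of Nfkb2, Relb and Nfkbib fell as the length slope rose (-0.21, 0.03, 0.30 and 0.13 in Acacetin 1 to 4). The TMM factors (0.85, 1.05, 1.32 and 1.18) ran in the order of the slopes. The part of either in the value of each library was not tested. The call of Nfkb2 was lost with limma on log2(FPKM + 0.1) (adjusted p = 0.0668) and with limma on log2(FPKM + 1) without a filter (0.0939), while Nfkbid and Relb were called in all 21 alternatives.

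The count was 1 of 10 higher and 2 of 10 lower, where edgeR called 14.0% of genes higher and 12.9% lower, and 26.9% in all. Groups without overlap were 3 of 10, against 25.7% of genes tested, 4 of 10 had an unadjusted p under 0.05, against 40.1%, and the median was -0.20 over the 10 genes and 0.08 over all genes. Rela (0.26 ± 0.14, adjusted p = 0.179) was not called here. It averaged 48.6 ± 8.37 CPM in Acacetin, with Acacetin 3 and Acacetin 4 inside the Control range. Nfkbib had 131, 95.2, 67.4 and 78.7 CPM in Acacetin 1 to 4 and missed the threshold (-0.43 ± 0.18, adjusted p = 0.0941). Without Acacetin 1, its only library inside the Control range, it was called (-0.64, adjusted p = 0.00375), and also with the length trend removed (0.0281). Without Acacetin 1 Rel was called as well (1.29, adjusted p = 0.0489), and 5801 in place of 3559 genes were called over the table. Nfkbia (161 ± 27.3 CPM in Acacetin), Nfkb1 (36.5 ± 6.08 CPM), Nfkbie (3.12 ± 1.11 CPM) and Nfkbiz (12.02 ± 4.32 CPM) were not called.

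Ratios of 2 genes within a library do not depend on library scaling, and they ask whether the 2 genes moved differently. They use the same counts as the tests above and are no second test of those calls. The log2 ratio of Relb to Rela reads was -1.50, -1.80, -1.59 and -1.87 in OGD 1 to 4, against -0.56, -0.43, -0.88 and -0.43 in Control 1 to 4. The means differed by -1.12, and the groups were far apart. In Acacetin the ratio averaged -1.76 ± 0.16, beside -1.69 ± 0.18 in OGD. For Nfkbid over Nfkbia the log2 ratio averaged -1.22 ± 0.14 in OGD and -2.84 ± 0.29 in Control, a difference of 1.62, and -1.55 ± 0.38 in Acacetin. Nfkb2 over Nfkb1 averaged 0.31 ± 0.26 in OGD and 1.28 ± 0.21 in Control, a difference of -0.97. In Acacetin it averaged 0.33 ± 0.60, with Acacetin 1 at 1.20 inside the Control range. Nfkb1 is the longer gene of that pair (length percentile 95.8 against 59.3), and the part of uneven length coverage in it was not tested.

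Each of these 3 ratios gave an exact permutation p of 0.0286 in OGD against Control (two-sided, n = 4 each), the smallest that 4 against 4 libraries allow. In Acacetin against Control the exact p was 0.0286 for Relb over Rela and for Nfkbid over Nfkbia, and 0.0857 for Nfkb2 over Nfkb1. Over the 12 tests (4 pairs in 3 comparisons) the 5 smallest, all at that lower limit, adjusted to 0.0686, so no ratio passed 0.05 after adjustment. With 5 tests at the limit, a wider gap between groups could not have lowered this value. The adjusted value therefore does not measure the size of these differences. For Acacetin against OGD the 4 exact p-values ran from 0.229 to 0.914. Rel over Rela did not separate any groups (exact p of 0.629 to 0.8).

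**Figure D4:**
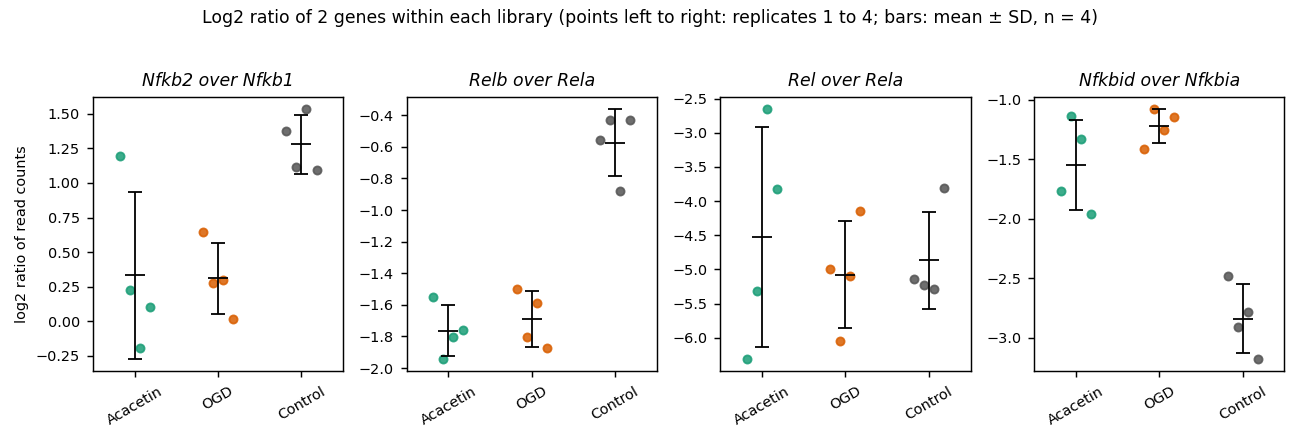
Log2 ratio of read counts of 2 genes within each library in Acacetin, OGD and Control, with mean ± SD (n = 4) and a separate axis per pair. Relb over Rela is at most -1.50 in each OGD and Acacetin library and at least -0.88 in Control, and Nfkbid over Nfkbia is higher in each OGD and Acacetin library than in Control.

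The other genes of the pathway were taken from 4 lists, chosen with earlier results of these data known. Their counts and medians are therefore a description and no test of a list. Of 16 tested IKK subunits and upstream kinases 2 rose and 1 fell in OGD against Control, where 16.2% of all tested genes were higher and 12.6% lower, and the median log2 fold change was 0.28, against 0.03 for all genes. Ikbkb (IKK beta, which phosphorylates IkB proteins) averaged 23.9 ± 1.06 CPM in OGD and 17.8 ± 1.16 CPM in Control (adjusted p = 0.0127), and Ikbkg (the regulatory subunit NEMO) 23.9 ± 1.87 and 18.3 ± 1.26 CPM (adjusted p = 0.0413). Tab1, a partner of the kinase TAK1, was lower (-0.47, adjusted p = 0.0257). Map3k14, the gene of NIK, averaged 15.5 ± 2.23 CPM in OGD and 20.6 ± 2.60 CPM in Control and was not called by edgeR (adjusted p = 0.104). It was called by DESeq2 (0.0360), without Acacetin 1 and Acacetin 3 (0.0393) and with only the 8 libraries compared (0.0461). Without OGD 2 and OGD 3 none of the 16 was called. Ikbkb was also lost with no filter (0.0729), with the length trend removed (0.271) and with limma on FPKM (0.460 to 0.589). With the length trend removed, Ikbkb had a log2 fold change of 0.48 ± 0.32 and Ikbkg 0.35 ± 0.21. The fit reported gave 0.43 ± 0.11 and 0.38 ± 0.13. Ikbkg was called in only 1 of 8 fits that left out a library (without OGD 4, adjusted p up to 0.109 in the others), and was lost with no filter (0.111), the length trend removed (0.221) and limma on FPKM (0.381 to 0.481), and Tab1 was lost without Control 2, Control 3, OGD 2 or OGD 4 (up to 0.0725). In Acacetin against Control 4 rose and 0 fell, where 14.0% of all tested genes were higher and 12.9% lower. Among them were Ikbkg (0.54, lost with the length trend removed, adjusted p = 0.124), Map3k7 (TAK1, 1.15) and Ripk1 (0.95). Map3k7 was lost without Control 1, Control 2 or Acacetin 3 (edgeR adjusted p up to 0.0668) and Ripk1 without Control 2, Control 4, Acacetin 3 or Acacetin 4 (up to 0.0643), and both were lost with limma on FPKM (0.0837 to 0.203).

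Of 18 adaptors and ubiquitin ligases 2 rose and 3 fell in OGD against Control, together 5 where 28.8% of all tested genes were called. The median was -0.18, against 0.03 for all genes. Myd88, the adaptor of Toll-like and interleukin-1 receptors, rose by 1.59 ± 0.19 on the log2 scale. Btrc encodes a subunit of the ligase that marks phosphorylated IkB alpha for degradation. It averaged 7.92 ± 0.722 CPM in OGD and 15.4 ± 1.79 CPM in Control (-0.96 ± 0.16, adjusted p = 0.000849). With the length trend removed its log2 fold change was -0.88 ± 0.38 and the call was lost (adjusted p = 0.0921). Rnf31, the catalytic subunit of the linear ubiquitin ligase, fell by 0.74 on the log2 scale. Traf3, which promotes NIK degradation, was higher (0.59, adjusted p = 0.0443), and Tradd, an adaptor of TNF receptor 1, lower (-0.75, adjusted p = 0.0225). Traf3 was called in only 1 of 8 fits without a library (without OGD 1, and up to 0.118 in the others) and was lost with the size factors of DESeq2 (0.0660), no filter (0.0935) and limma on FPKM (0.400 to 0.625), and Tradd was lost without Control 1, Control 2, OGD 2 or OGD 4 (up to 0.0619). Without OGD 2 and OGD 3, 1 rise and 2 falls were called. In Acacetin against Control 2 rose (Myd88 1.36, Traf3 0.70) and 2 fell (Btrc -0.78, Rnf31 -0.75), where 14.0% of all tested genes were higher and 12.9% lower. Btrc was lost with the length trend removed (adjusted p = 0.0980) and limma on log2(FPKM + 1) (0.0509), and Rnf31 with limma on FPKM (0.0639 to 0.1197). Traf3 was lost without Control 1, Control 3, Acacetin 2, Acacetin 3 or Acacetin 4 (edgeR adjusted p up to 0.0707) and with limma on FPKM (0.117 to 0.219).

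Of 19 negative regulators 5 rose and 2 fell in OGD against Control, where 16.2% of all tested genes were higher and 12.6% lower. The median was 0.07, against 0.03 for all genes. Zc3h12a, the gene of the ribonuclease Regnase-1 that degrades inflammatory mRNAs, averaged 70.6 ± 5.39 CPM in OGD and 38.3 ± 7.01 CPM in Control (0.88 ± 0.16, adjusted p = 0.00117). Tnip1, a partner of the ubiquitin-editing enzyme A20, rose by 0.51 (lost with limma on FPKM, adjusted p of 0.230 to 0.375), and Nlrc5, better known for MHC class I genes, by 0.80 (lost without OGD 3, adjusted p = 0.0583, and with limma on FPKM, 0.249 to 0.468). Pdlim2, which targets p65 for degradation, and Commd1, which limits p65 on chromatin, had log2 fold changes of -0.63 and -0.62. Pdlim2 was lost without Control 1, Control 2 or OGD 4 (edgeR adjusted p up to 0.0804). Commd1 was lost without Control 1, Control 2, Control 3, OGD 2 or OGD 4 (up to 0.0888) and with the length trend removed (0.0637). With that trend removed Commd1 had -0.67 ± 0.26, beside -0.62 ± 0.20 in the fit reported. Without OGD 2 and OGD 3, 2 rises and 0 falls were called. Tnfaip3, the gene of A20, averaged 2.59 ± 0.553 CPM in OGD and 3.56 ± 1.12 CPM in Control (adjusted p = 0.330). Bcl3, a further nuclear IkB protein, averaged 34.7 ± 8.59 CPM in OGD and 33.2 ± 7.89 CPM in Control (adjusted p = 0.853).

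In Acacetin against Control 2 negative regulators rose, Zc3h12a (0.63) and Nlrc5 (0.82), and 3 fell, where 14.0% of all tested genes were higher and 12.9% lower. Nlrc5 was lost with limma on FPKM (adjusted p of 0.0899 to 0.202). The falls were Pdlim2 (-0.87), Commd1 (-0.59) and Tnip3 (-1.14), which stood at 0.430 ± 0.246 CPM in Acacetin and 0.975 ± 0.272 CPM in Control. Commd1 was lost without Control 1, Control 2, Control 3, Acacetin 2, Acacetin 3 or Acacetin 4 (edgeR adjusted p up to 0.110), with the length trend removed (0.0768), without OGD 2 and OGD 3 (0.0538) and with only the 8 libraries compared (0.0667). Tnip3 was lost without Control 1, Control 2, Control 4, Acacetin 1, Acacetin 2 or Acacetin 4 (edgeR adjusted p up to 0.117), with no filter (0.0870), without OGD 2 and OGD 3 (0.0879), with only the 8 libraries compared (0.0696) and with limma on FPKM (0.217 to 0.622).

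**Figure D5:**
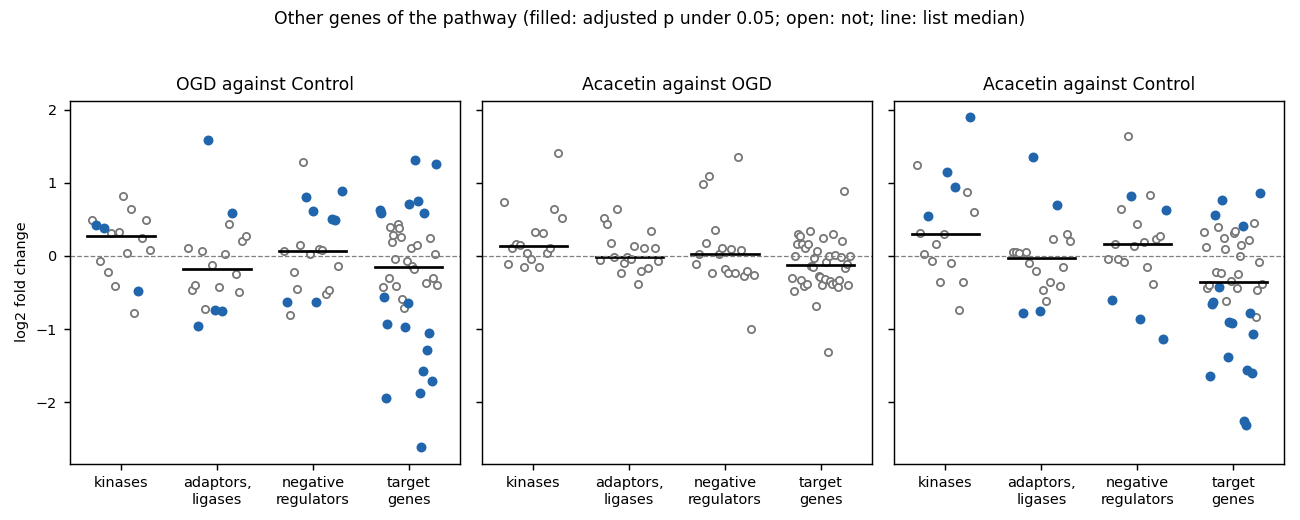
Log2 fold changes of the tested genes of 4 pathway lists in the 3 comparisons, filled where edgeR's adjusted p was under 0.05, with a line at each list's median. Filled points lie on both sides of 0 in both comparisons with Control except for the kinases in Acacetin against Control, and no point is filled for Acacetin against OGD.

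Known NF-kB target genes moved in both directions. Of 40 tested, 7 rose and 11 fell in OGD against Control, where 16.2% of all tested genes were higher and 12.6% lower. The median log2 fold change was -0.15, against 0.03 for all genes. The cytokine gene Lta had the smallest p among the falls (8.06 ± 2.18 CPM in OGD and 49.4 ± 4.49 CPM in Control), before the chemokine gene Ccl3 (-1.94) and Lcn2 (-1.87), which encodes a siderophore-binding protein. The rises with the smallest p were Tlr2 (51.5 ± 9.96 CPM in OGD and 21.6 ± 3.75 CPM in Control), the cytokine gene Il1b (1.31) and the adhesion gene Icam1 (0.71, lost with limma on log2(FPKM + 0.1), adjusted p = 0.0741). Tnf averaged 452 ± 50.4 CPM in OGD and 592 ± 53.6 CPM in Control and was not called (edgeR adjusted p = 0.106). It was called by DESeq2 (0.0240), by limma on log2(FPKM + 1) (0.0253) and in 4 other edgeR fits, with the length trend removed (0.0108), without Acacetin 1 and Acacetin 3 (0.0223), with only the 8 libraries compared (0.0257) and without Control 4 (0.0359). Without OGD 2 and OGD 3, 5 rises and 7 falls were called. In Acacetin against Control 4 rose and 13 fell, where 14.0% of all tested genes were higher and 12.9% lower, with a median of -0.36, against 0.08 for all genes. The falls included Lcn2 (-2.25), Lta (-2.31) and Ccl3 (-1.64), and the rises Tlr2 (0.86), the lectin receptor gene Clec4e (0.77, lost with limma on log2(FPKM + 1) without a filter, adjusted p = 0.0697) and the chemokine gene Ccl7 (0.56, lost without Control 1, adjusted p = 0.0611).

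Ikbkb, Map3k14, Tnf, Tnfaip3, Bcl3 and Il1b were followed in each comparison, and none was called by edgeR in Acacetin against Control. Ikbkb was at 0.32 (adjusted p = 0.0552, and 0.00689 by DESeq2), Map3k14 at -0.36 (0.145, and 0.0163 without Acacetin 1) and Tnf at -0.38 (0.110, and 0.0134 without Acacetin 1). Tnfaip3 (-0.38), Bcl3 (-0.04) and Il1b (-0.0066) had adjusted p-values of 0.404 to 0.983.

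Acacetin against OGD gave 0 calls by edgeR in all 4 lists. At an unadjusted p under 0.05 there were 1 of 16 kinases, 1 of 18 adaptors, 4 of 19 negative regulators and 10 of 40 target genes, where all genes gave 5.17%. These 10 target genes were all lower in Acacetin. The lists were chosen with earlier results of these data known, so these shares and directions are a description and no test of a list. Of the 40 target genes 26 had a negative log2 fold change, with a median of -0.12, against -0.02 for all genes. Directions in this comparison depend on scaling. DESeq2 called 1 of the target genes and none in the other lists. That gene was Il1b (16.3 ± 1.07 CPM in Acacetin and 40.6 ± 5.73 CPM in OGD), lower by edgeR at -1.32 on the log2 scale (adjusted p = 0.0686, and 1.02e-06 by DESeq2). It was called by edgeR with no filter (0.00606), with the length trend removed (0.0245), with only the 8 libraries compared (0.0495) and without Acacetin 1 (0.0131), and in neither the remaining fits without a library (0.0602 to 0.469) nor limma on FPKM (0.286 to 0.533). Without OGD 2 and OGD 3 it was -1.08 (adjusted p = 0.9996). Tnf averaged 454 ± 108 CPM in Acacetin and 452 ± 50.4 CPM in OGD, Ikbkb 22.1 ± 1.14 and 23.9 ± 1.06 CPM, Map3k14 16.1 ± 3.74 and 15.5 ± 2.23 CPM, Tnfaip3 2.72 ± 1.07 and 2.59 ± 0.553 CPM, and Bcl3 32.3 ± 7.24 and 34.7 ± 8.59 CPM. The adjusted p-values of these 5 genes by edgeR were at least 0.888.

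The genes with the pattern most like Nfkbid over the 12 libraries were taken by Pearson correlation of log2 CPM. The search covered 9436 tested genes averaging 2 CPM or more, without the 10 members and without genes named only as models or clones. The closest were Rbm15b (r = 0.989), Rab35 (0.988), L3mbtl2 (0.987), Sec1 (0.987) and Ccnf (0.987). Rbm15b, the gene of an RNA-binding protein, averaged 43.0 CPM in Acacetin, 50.1 CPM in OGD and 24.8 CPM in Control. Those most like Relb were Slc7a7 (0.983), Kifc3 (0.977), Ucp2 (0.976), Adprh (0.974) and Klc2 (0.973). Ucp2, the gene of a mitochondrial carrier, averaged 499 CPM in Acacetin, 576 CPM in OGD and 877 CPM in Control. These values describe likeness over libraries that share depth, length coverage and treatment, and carry no test.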

How the data were processed

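Raw read counts per gene and FPKM were deposited by the authors as 2 tables with 1 column per library. Per the submitters' processing notes, bcl2fastq, HISAT2, DESeq2 and build GRCm39 were used. The counter and its strand setting are not given in the sources used here, though the kit is stranded per the labels' protocols. The deposited FPKM values equal each count scaled by 1 factor per gene and 1 per library.

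Counts were tested with edgeR 4.0.16 (R 4.3.3): filterByExpr (minimum count 10, minimum total 15), TMM scaling and the quasi-likelihood test over all 12 libraries, with Benjamini-Hochberg adjustment over 13249 genes and calls under 0.05. DESeq2 1.42.0 and limma 3.58.1 on log2(FPKM + 1) or log2(FPKM + 0.1) were alternatives, with other filters, thinning to 16427886 reads, a length trend, a replicate block and left-out libraries. Such log2 values understate changes of low genes. The FPKM fits had no TMM scaling, and deposited FPKM was low in general in OGD 2 and OGD 3. Ratios used counts + 0.5 and a two-sided exact permutation test. The fits were tested on simulated data. Replicate correlations within groups were 0.905 to 0.991, and no 2 libraries were identical. The tables had no unmatched columns.

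The members and lists were chosen with earlier results of these data known. Named were all 10 members, up to 3 rises and 3 falls per list and comparison by smallest p, and Tnfaip3, Bcl3, Ikbkb, Map3k14, Tnf and Il1b throughout. Of 43 target genes, Cxcl1, Il12b and Vcam1 did not pass the filter. Gene overlaps were read by name from GENCODE M21, and figures were drawn with Python 3.11.15 and matplotlib 3.10.9.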

Additional observations from a re-analysis of the deposited data

Results flagged for a closer look

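In 5 of 42 groups of 4 libraries examined, 1 library stood apart from the other 3 by Dixon's criterion, which chance meets in about 1 of 20 groups. Nfkb1 was at 27.4 CPM in Acacetin 1, where the other Acacetin libraries had 39.1 to 40.3 CPM. Acacetin 1 had the lowest length slope of all libraries (-0.21). Nfkb1 was at 53.2 CPM in OGD 4, beside 37.9 to 40.0 CPM in the other OGD libraries. Rel was at 2.42 CPM in Control 4, beside 1.04 to 1.27 CPM in the other Control libraries, and the log2 ratio of Rel to Rela there was -3.80, beside -5.29 to -5.14. Nfkbid was at 82.6 CPM in OGD 2, one of the libraries high in 18S rRNA, beside 68.1 to 69.8 CPM in the other OGD libraries.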

How the results depend on the processing

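Nfkbid kept its direction and side of the threshold in all 21 alternatives of each comparison. Of the 10 genes, 4 were called in OGD against Control, and 2 with limma on log2(FPKM + 1) without a filter, 1 without OGD 2 and OGD 3, 1 when a 2-fold change or more (log2 of 1) was also required, and 3 to 4 with 1 library left out. All genes called there were 2024 without OGD 2 and OGD 3, 1532 with that fold, and 2794 to 3457 with 1 left out. Acacetin against OGD had 0 calls, and 37 with DESeq2, 8 with no filter, 4 with the length trend removed, 4 without Acacetin 1 and Acacetin 3, 1 with only the 8 libraries compared, 2 with the replicate block, and 0 to 9 with 1 left out (9 without Acacetin 1). Acacetin against Control had 3 of the 10 genes and 3559 in all, with 1 and 1441 at that fold, 2270 in all with limma on log2(FPKM + 0.1), 2089 with limma on log2(FPKM + 1) without a filter, and 3 to 5 and 2369 to 5801 with 1 left out (5801 without Acacetin 1, 2369 without Control 2). The causes were not tested. Rel rested on 14 to 227 reads per library and Nfkbie on 30 to 125, the 2 lowest of the 10 genes.

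The labels tie no replicate number to a shared culture or day, and the numbers were not taken as pairs: correlations of same-numbered libraries ran from -0.29 to 0.51, and 8 of 12 were over 0.1. Each library was set against each other group, and in 11 of 24 such comparisons it correlated best with its own number, where chance gives 6. With the replicate block 4572 genes and 4 of the 10 were called in OGD against Control, 2 and 0 in Acacetin against OGD, and 4279 and 4 in Acacetin against Control, where Nfkbib was added (adjusted p = 0.0194). With the block Map3k14 was called lower in OGD (-0.41, adjusted p = 0.0267) and in Acacetin (-0.38, 0.0411) against Control, Ikbkb higher in Acacetin against Control (0.0460), and Il1b lower in Acacetin against OGD (0.0447). It called 6 of 16 kinases in OGD against Control, and 8 of 16 kinases and 6 of 18 adaptors in Acacetin against Control.

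Some values turned sign, none of them called. In the fit reported these were at most 0.21 in size, but for Rel (0.67 in Acacetin against OGD, 0.30 in OGD against Control) and its ratio to Rela (0.55 in Acacetin against OGD, 0.34 in Acacetin against Control). With the gene length trend removed these values were Nfkbia 0.023 in OGD against Control, and Nfkbia 0.0072, Tnfaip3 -0.021 in Acacetin against OGD, and Nfkb1 -0.038, Nfkbia 0.030, Bcl3 0.0035, Il1b 0.11 in Acacetin against Control. With limma on log2(FPKM + 1), with or without the filter, these values were Bcl3 -0.080 in OGD against Control, and Nfkb1 0.054, Nfkb2 0.084, Rela 0.13, Relb 0.045, Nfkbia 0.20, Nfkbib 0.14, Ikbkb 0.083, Bcl3 0.17 in Acacetin against OGD, and Nfkbia 0.034, Bcl3 0.094, Il1b 0.15 in Acacetin against Control. With limma on log2(FPKM + 0.1) these values were Bcl3 -0.093 in OGD against Control, and Nfkb1 0.075, Nfkb2 0.098, Rela 0.14, Relb 0.068, Nfkbia 0.20, Nfkbib 0.14, Ikbkb 0.16, Bcl3 0.20 in Acacetin against OGD, and Nfkbia 0.034, Bcl3 0.10, Il1b 0.17 in Acacetin against Control. Without OGD 2 and OGD 3, they were Nfkbiz -0.067, Map3k14 -0.040 in Acacetin against OGD, and Bcl3 0.0013, Il1b 0.043 in Acacetin against Control. With counts thinned to the smallest library these values were Map3k14 -0.0062 in Acacetin against OGD. Without Acacetin 1 and Acacetin 3, they were Map3k14 -0.040 in Acacetin against OGD. With the replicate block these values were Tnf -0.0046 in Acacetin against OGD, and Il1b 0.026 in Acacetin against Control. With no filter on low counts these values were Il1b 0.016 in Acacetin against Control. With only the 8 libraries compared the value was Il1b 9.4e-05 in Acacetin against Control. With 1 library left out in turn, the values of OGD against Control ran as Rel -0.14 to 0.66, Nfkbia -0.085 to 0.035, Bcl3 -0.11 to 0.24, Rel over Rela -0.52 to 0.15. With 1 library left out in turn, the values of Acacetin against OGD ran as Rel -0.063 to 1.11, Nfkbia -0.18 to 0.020, Nfkbib -0.33 to 0.010, Nfkbiz -0.015 to 0.44, Map3k14 -0.12 to 0.15, Bcl3 -0.27 to 0.068, Tnfaip3 -0.069 to 0.32, Tnf -0.14 to 0.14, Nfkb2 over Nfkb1 -0.27 to 0.20, Rel over Rela -0.078 to 1.14. With 1 library left out in turn, the values of Acacetin against Control ran as Nfkbia -0.19 to 0.0032, Bcl3 -0.20 to 0.14, Il1b -0.13 to 0.22, Rel over Rela -0.29 to 0.93.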
